A study of Mus musculus with 4 samples.

Results

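The nuclear genes for oxidative phosphorylation complexes II to V were examined in Langerhans cells, which sample antigen in the epidermis, whose mitochondrial transcription factor gene Tfam had been targeted. Members were all symbols that begin with Uqcr, Cox4 to Cox8 or Atp5, together with Sdha to Sdhd and Cyc1, which gave 47 of the 24441 symbols in the tables. They divided into 4 genes of complex II, 9 of complex III, 18 of complex IV and 16 of complex V. Langerhans cells had been sorted from epidermal cell suspensions of mice 4 weeks of age. The Tfam cKO mice (CD11cCreTfamfl/fl) carried a CD11c-driven Cre recombinase and floxed Tfam alleles, so deletion is directed to cells that express CD11c and is not restricted to Langerhans cells. They were compared with wild-type mice (WT), and each group had 2 libraries, numbered 1 and 2. The labels do not give strain, sex or the number of mice behind a library, and they do not state that the 2 libraries of a group came from separate animals. The p-values therefore measure only the spread between these libraries.

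The respiratory chain and ATP synthase carry electrons from food-derived substrates to oxygen and use the energy to make ATP. Complex II, succinate dehydrogenase, is built only from nuclear genes, whereas complexes III, IV and V each combine nuclear subunits with subunits encoded by mitochondrial DNA, whose transcription and packaging need TFAM. Cytochrome c oxidase, complex IV, additionally exists in tissue-specific forms, because several of its nuclear subunits have a ubiquitous gene and a second gene used mainly in muscle, lung or testis. The mRNAs of mitochondrial DNA were not analysed here.

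The values were FPKM, fragments scaled to transcript length and to mapped fragments, so that levels are per length and can be set side by side between genes. Summed over all symbols they came to between 338783 and 395707 per library, and the number of reads is unknown. Tfam was listed at 1.65 and 1.53 FPKM in Tfam cKO libraries 1 and 2, against 3.17 and 1.61 FPKM in WT 1 and WT 2. WT 2 was thus at the Tfam cKO level, and group names below are those of the labels. The Langerhans cell gene Cd207 was listed at 1374 to 2098 FPKM, and all 6 Langerhans cell markers examined were present in every library. The 8 keratinocyte markers were present as well, with summed levels of 11368 and 10145 FPKM in Tfam cKO and 11880 and 7822 FPKM in WT. The 6 T cell markers summed to 164 and 232 FPKM in Tfam cKO and to 233 and 252 FPKM in WT, so both Tfam cKO sums were lower. Of the single T cell markers, Cd3g was lower in both Tfam cKO libraries, Thy1 was slightly higher in both, and the others overlapped between groups. The 6 macrophage markers summed to 128 and 74.1 FPKM in Tfam cKO and to 26.1 and 35.3 FPKM in WT, nearly all from C1q genes, with Cd163 at 0 throughout. Apart from the tissue forms of complex IV subunits, these respiratory genes are used by every cell type. Each value below thus adds the cell types in the sorted sample that express the gene. Fewer cells of a type and less RNA per cell cannot be told apart in such bulk samples. The Y-linked gene Ddx3y was listed at 0 in both libraries numbered 1, and at 9.34 FPKM in Tfam cKO 2 and 28.2 FPKM in WT 2. The X-inactivation transcript Xist was listed at 39.0 and 45.6 FPKM in Tfam cKO 1 and 2, and at 64.6 and 5.38 FPKM in WT 1 and 2. The libraries numbered 1 were thus alike in these transcripts, and those numbered 2 were not. Within each group Ddx3y was at 0 in library 1 and present in library 2, so the 2 libraries did not come from an identical set of mice. How many mice stand behind each is not given.

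Most members were among the abundant mRNAs of these sorted samples, which held other cell types as well. Of the 47 genes, 42 reached a mean of 1 FPKM across libraries and were tested. The median of the mean levels was 88.0 FPKM over the tested members, against 8.41 FPKM over all 10910 tested symbols. By complex this median was 41.4 FPKM for complex II, 72.5 for complex III, 151 for complex IV and 124 for complex V. Cox4i1, the ubiquitous form of a regulatory subunit of cytochrome c oxidase, was the highest member at a mean of 380 FPKM, followed by Atp5b, the catalytic beta subunit of ATP synthase, at 362 FPKM. The lowest tested member was Atp5s at 1.53 FPKM, a coupling factor rather than a structural subunit. The 5 members that were not tested were all second-tissue forms of complex IV subunits, Cox4i2, Cox6a2, Cox7b2, Cox8b and Cox8c. Atp5s had a mean just inside the threshold of 1 FPKM, and Cox6a2, with Tfam cKO and WT means of 0.691 and 0.0913 FPKM, lay outside it.

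**Figure D1:**
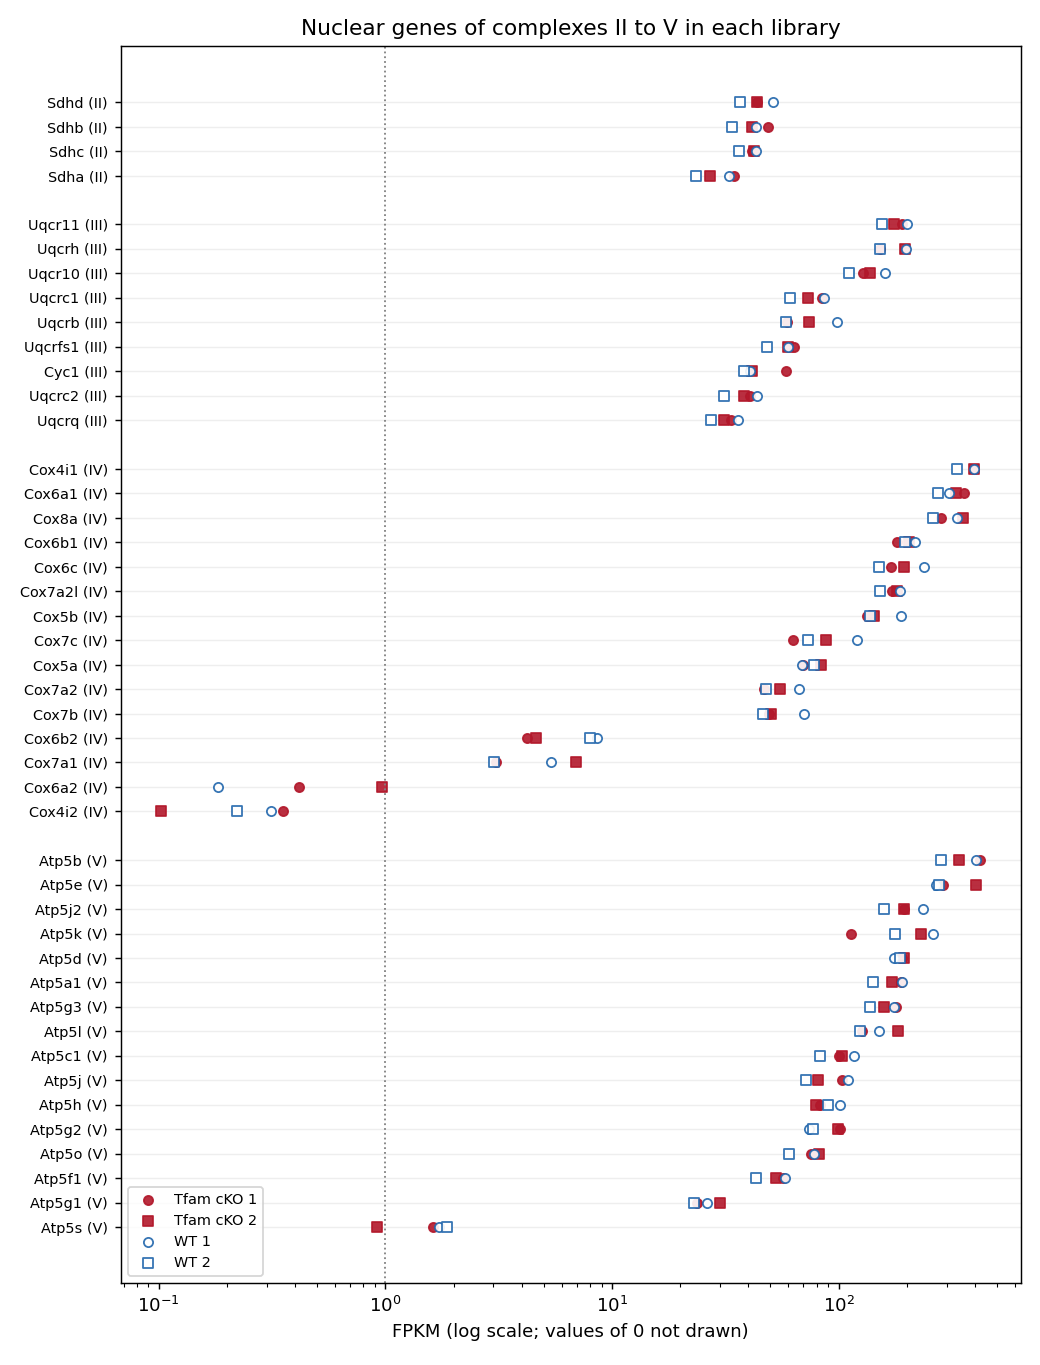
FPKM on a log scale for each member of complexes II, III, IV and V, with Tfam cKO libraries as filled red and WT libraries as open blue symbols, circles for libraries numbered 1 and squares for those numbered 2. The dotted line marks the threshold of 1 FPKM. Cox7b2, Cox8b and Cox8c, at 0 in all libraries, and the value of 0 of Cox6a2 in WT 2 are not drawn. Groups overlap for most genes, while for Cox6b2 both filled symbols lie below both open ones.

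No member passed the test between Tfam cKO and WT. In limma on log2(FPKM + 1), with Benjamini-Hochberg adjustment over all 10910 tested symbols, 0 of the 42 tested members were higher and 0 were lower at an adjusted p below 0.05. Over all symbols 0.0183% were called higher and 0% lower, or 0.0183% in either direction. The limma adjusted p of the members was 0.334 for Cox6b2 and at least 0.80 for every other member. At an unadjusted p below 0.05 there were 2 members, Cox6b2 lower and Atp5g2 higher, which is 2 of 42 beside 6.21% of all symbols. The median log2 fold change was 0.08 over the members and 0.07 over all tested symbols. The lowest Tfam cKO value exceeded the highest WT value for 6 of 42 members, against 25.4% of all symbols. The highest Tfam cKO value lay under the lowest WT value for 3 members, against 9.75%. The genes separated upward in this way were Cyc1, Uqcrfs1, Cox6a1, Atp5d, Atp5e and Atp5g2, and those separated downward were Cox6b2, Atp5h and Atp5s. These counts depended on scaling. After rescaling every library to the same total, Cox6a1 and Atp5g2 were the only members separated upward, 2 of 42 beside 14.3% of all symbols, and 6 were separated downward, beside 19.8%. Cox6b2, Atp5h and Atp5s were each separated downward under the deposited scale, after quantile normalization and after this rescaling. Cox5b, Cox6b1 and Cox7b joined them after quantile normalization and after this rescaling.

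**Figure D2:**
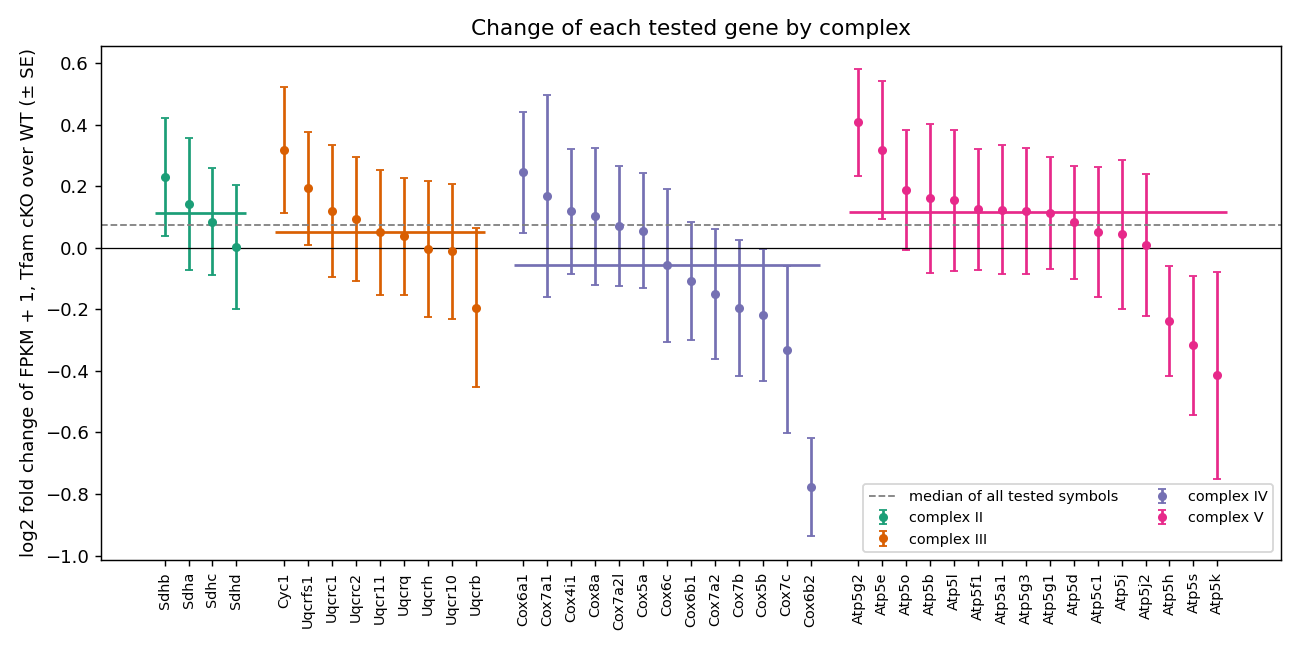
Log2 fold change of FPKM + 1, Tfam cKO over WT, with its standard error, for the 42 tested members, ordered by value within each complex. Coloured bars mark the median of each complex and the dashed line the median of all tested symbols. Complexes II, III and V have medians of 0.11, 0.05 and 0.12, complex IV one of −0.06, and Cox6b2 stands lowest at −0.78.

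The median log2 fold change was also taken for each complex. Its value was 0.11 for the 4 genes of complex II, 0.05 for the 9 of complex III, −0.06 for the 13 tested of complex IV and 0.12 for the 16 of complex V. After rescaling to equal totals all 4 medians were below 0, at −0.01, −0.07, −0.18 and −0.005 in that order, as was that of all symbols at −0.04. Under quantile normalization complex II was at 0.01 and the others stayed below 0. The share of each complex in the summed FPKM of the members does not depend on the scaling of a library. Complex IV took 37.5% and 38.2% of that sum in Tfam cKO, and 38.5% and 39.1% in WT. Complex V took 43.6% and 43.9% in Tfam cKO, and 42.4% and 42.9% in WT. The groups did not overlap in the shares of complexes IV and V. These shares are parts of the same sum and not independent. With 2 libraries against 2, an exact two-sided permutation test of a share cannot go below p = 0.333. For complex III the shares were 15.7% and 15.1% in Tfam cKO and 16.1% and 15.2% in WT, and for complex II 3.27% and 2.83% in Tfam cKO and 2.98% and 2.89% in WT. The groups overlapped in both. As a share of all FPKM the members together held 1.30% and 1.46% in Tfam cKO and 1.55% and 1.33% in WT, again with overlap.

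The order of the libraries was similar for many members. WT 1 was the highest library for 25 of the 42 tested members and WT 2 the lowest for 29, beside 27.1% and 46.0% of all symbols. Within the libraries numbered 1, Tfam cKO was higher than WT for 11 of 42 members, beside 52.7% of all symbols. Within those numbered 2 it was higher for 39 of 42, beside 69.0%. The differences were not rescaled, and the summed FPKM of all symbols was 338783 in WT 2 and 375823 in Tfam cKO 2. The medians of these differences were −0.11 and 0.26 on the log2 scale, beside 0.02 and 0.13 for all symbols. A lower value in Tfam cKO 1 than in WT 1 together with a higher value in Tfam cKO 2 than in WT 2 was found for 28 of 42 members, against 31.1% of all symbols, and the opposite for 0 members. Without WT 1 the log2 fold change was positive for 36 of the 42 members, and without WT 2 for 11. The median over all symbols was 0.135 without WT 1 and 0.014 without WT 2. How many of all symbols were positive in these fits was not counted, so the member counts have no like background. With all 4 libraries, 29 of 42 members and 65.2% of all symbols were positive. Summed keratinocyte markers were highest in WT 1 and lowest in WT 2, but the single markers did not all follow this order. Krt5, Krt15 and Krt1 were highest in WT 1, Krt14, Col17a1 and Dsp in Tfam cKO 1, and Krt10 and Lor in Tfam cKO 2. Krt1, Krt10 and Lor were not lowest in WT 2. The part of keratinocytes in the pattern of the members was not tested. Cox6b2, Atp5h and Atp5s were the 3 of 42 members with lower Tfam cKO values within both numbers, beside 1761 of all 10910 tested symbols. For these genes this follows from the downward separation given above and adds nothing to it.

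**Figure D3:**
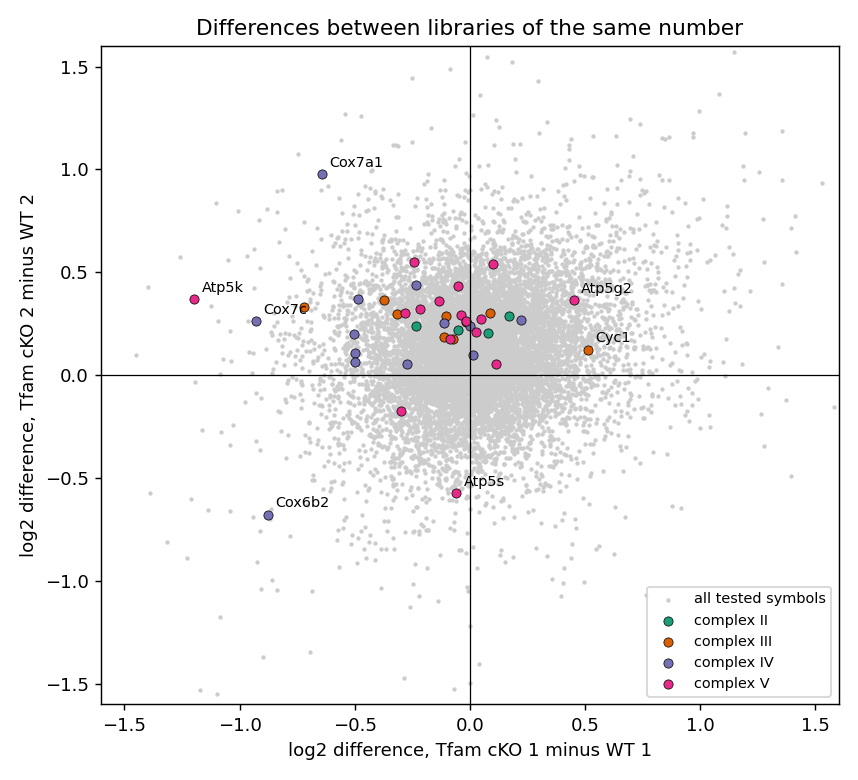
Log2 difference of FPKM + 1 between Tfam cKO and WT libraries numbered 1 (horizontal) and numbered 2 (vertical), for the tested members coloured by complex and for all tested symbols in grey. Both axes end at 1.6 on either side, which leaves 36 grey symbols undrawn. Most members, 28 of 42, lie in the upper left, while Cox6b2, Atp5h and Atp5s lie in the lower left.

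Complex II oxidises succinate in the citric acid cycle and feeds electrons to ubiquinone. Sdha, the flavoprotein that binds succinate, was at 34.6 and 27.1 FPKM in Tfam cKO and at 32.7 and 23.4 FPKM in WT. Sdhb, the iron-sulfur subunit, was at 48.9 and 41.7 FPKM in Tfam cKO and at 43.4 and 33.9 FPKM in WT. For both genes the groups overlapped, since WT 1 exceeded Tfam cKO 2. Of the membrane anchors, Sdhc was at 41.5 and 42.6 FPKM in Tfam cKO and at 43.0 and 36.4 FPKM in WT. Sdhd was at 43.6 and 43.6 FPKM in Tfam cKO and at 51.5 and 36.7 FPKM in WT. The 4 subunits had similar levels, with means between 29.5 and 43.9 FPKM, and log2 fold changes between 0.003 and 0.23 with standard errors of 0.17 to 0.21. The lowest limma adjusted p in complex II was 0.92, for Sdhb.

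Complex III passes electrons from ubiquinol to cytochrome c. Cyc1, its cytochrome c1, was at 58.5 and 41.7 FPKM in Tfam cKO and at 40.8 and 38.1 FPKM in WT. Uqcrfs1, the Rieske iron-sulfur protein, was at 63.4 and 59.9 FPKM in Tfam cKO and at 59.7 and 48.4 FPKM in WT. For both electron-carrying subunits the Tfam cKO libraries were above the WT libraries, but Tfam cKO 2 exceeded WT 1 by little in each. The log2 fold change was 0.32 for Cyc1 (SE 0.20, limma adjusted p = 0.89) and 0.19 for Uqcrfs1 (SE 0.18, limma adjusted p = 0.93). The core proteins Uqcrc1 and Uqcrc2 overlapped between groups. Uqcrc1 was at 84.9 and 73.1 FPKM in Tfam cKO and at 86.0 and 61.0 FPKM in WT, and Uqcrc2 at 40.5 and 38.3 FPKM in Tfam cKO and at 43.5 and 31.2 FPKM in WT. The 5 small subunit genes, Uqcrb, Uqcrh, Uqcrq, Uqcr10 and Uqcr11, had log2 fold changes between −0.19 and 0.05. Between libraries numbered 1 their median difference was −0.32, and between those numbered 2 it was 0.30, beside 0.08 and 0.27 for the 6 catalytic and core genes of complexes II and III. Uqcrb had the lowest log2 fold change of these, at 59.1 and 74.2 FPKM in Tfam cKO and at 98.0 and 58.7 FPKM in WT.

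The second-tissue forms of complex IV subunits were low or absent beside their ubiquitous partners, and only Cox6b2 and Cox7a1 passed the threshold for testing. Promoter windows are shown for the pair Cox6b2 and Cox6b1, on which the isoform result turns, and for Cox8b, listed at 0, beside Cox8a, because the pairs differ in their CG content. They are RefSeq sequences on GRCm38.p6, 250 bases before to 50 after the transcript start, all on the minus strand, with every CG dinucleotide in capitals. Cox6b2 lies at chr7:4753045-4753344, Cox6b1 at chr7:30626065-30626364, Cox8b at chr7:140900397-140900696 and Cox8a at chr19:7217567-7217866.
Cox6b2: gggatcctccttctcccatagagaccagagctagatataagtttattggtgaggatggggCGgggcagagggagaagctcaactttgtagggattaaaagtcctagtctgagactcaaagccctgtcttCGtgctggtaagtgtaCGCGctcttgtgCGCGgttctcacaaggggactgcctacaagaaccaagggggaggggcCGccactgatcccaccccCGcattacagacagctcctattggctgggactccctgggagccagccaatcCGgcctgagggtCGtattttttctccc
Cox6b1: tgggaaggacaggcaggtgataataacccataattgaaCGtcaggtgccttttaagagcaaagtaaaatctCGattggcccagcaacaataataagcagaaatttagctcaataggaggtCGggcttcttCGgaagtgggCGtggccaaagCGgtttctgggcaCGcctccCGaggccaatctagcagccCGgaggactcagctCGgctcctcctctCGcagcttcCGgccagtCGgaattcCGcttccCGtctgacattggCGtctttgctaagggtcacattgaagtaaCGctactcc
Cox8b: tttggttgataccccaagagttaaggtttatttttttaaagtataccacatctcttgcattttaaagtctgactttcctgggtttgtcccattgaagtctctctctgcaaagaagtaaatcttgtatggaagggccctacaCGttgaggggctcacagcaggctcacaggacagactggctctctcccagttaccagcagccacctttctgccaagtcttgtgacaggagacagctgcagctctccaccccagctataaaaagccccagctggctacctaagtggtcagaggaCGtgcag
Cox8a: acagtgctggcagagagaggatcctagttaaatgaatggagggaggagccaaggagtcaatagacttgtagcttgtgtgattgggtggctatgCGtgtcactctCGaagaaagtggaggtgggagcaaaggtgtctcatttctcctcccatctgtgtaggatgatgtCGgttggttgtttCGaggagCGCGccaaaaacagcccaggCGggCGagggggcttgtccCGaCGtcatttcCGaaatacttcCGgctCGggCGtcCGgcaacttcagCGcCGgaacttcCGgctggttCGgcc

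The number of CG dinucleotides was 10 in the Cox6b2 window and 17 in that of Cox6b1, and 2 in the Cox8b window and 19 in that of Cox8a. Promoter windows were found in RefSeq for 34 of the 47 members, 37 windows in all, with a median of 18 CG dinucleotides, beside 7 over all 32851 promoter windows. The 4 windows of second-tissue Cox genes held 2 to 10, and the 5 windows of their ubiquitous partners 5 to 32, the lowest of these being Cox7b. On either strand, the letters GCGCANGCG of the NRF1 motif were present in 12 of the 37 windows (32.4%) and in 6.2% of all windows. The letters CCGGAAG of the GABP motif were present in 12 of the 37 (32.4%) and in 8.9% of all. The letters AANATGGC of the YY1 motif were present in 4 of the 37 (10.8%) and in 6.1% of all. NRF1, GABP and YY1 are transcription factors known to act on nuclear genes of the respiratory chain. None of these letters were found in the 4 windows of second-tissue forms. Of the 5 ubiquitous partners, Cox6a1 held 3 NRF1 matches and 1 GABP match, Cox6b1 held 1 GABP match, Cox8a 2 GABP matches and Cox7b 1 YY1 match, while Cox7a2, the partner of Cox7a1, held none. In the pair of Cox7b2 and Cox7b the CG content ran the other way, with 10 in the Cox7b2 window and 5 in that of Cox7b. A match is letters in a window and not a bound site, and the part of CG content in these shares was not tested.

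Cox6b2 encodes the testis-enriched form of a subunit on the intermembrane-space side of cytochrome c oxidase. It was at 4.23 and 4.62 FPKM in Tfam cKO and at 8.61 and 7.995 FPKM in WT. Both Tfam cKO libraries were lower than both WT libraries. The log2 fold change was −0.78 (SE 0.16, limma adjusted p = 0.334), with log2 differences of −0.88 between the libraries numbered 1 and −0.68 between the libraries numbered 2. The log2 fold change was −0.82 without WT 2, whose Tfam level was that of Tfam cKO, and −0.73 without WT 1. It was −0.725 without Tfam cKO 1 and −0.83 without Tfam cKO 2. Cox6b1, the ubiquitous partner, was at 180 and 205 FPKM in Tfam cKO and at 218 and 197 FPKM in WT, with overlapping groups. Its log2 fold change was −0.11 (SE 0.19, limma adjusted p = 0.97). Cox6b2 thus made up 2.30% and 2.21% of the summed FPKM of the pair in Tfam cKO and 3.80% and 3.90% in WT. This share, which no scaling of a library changes, averaged 2.25 ± 0.06% in Tfam cKO and 3.85 ± 0.07% in WT (SD, n = 2 each). With 2 libraries against 2, an exact two-sided permutation test cannot go below p = 0.333, the value it gave here.

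The fragments behind Cox6b2 were few. The 95% intervals that Cufflinks gave ran from 1.51 to 6.96 FPKM in Tfam cKO 1 and from 2.64 to 6.61 FPKM in Tfam cKO 2. In WT they ran from 5.40 to 11.8 FPKM in WT 1 and from 5.36 to 10.6 FPKM in WT 2, so that intervals of the groups overlapped. Their widths correspond to an effective number of about 9.7 and 21.7 fragments in Tfam cKO and 28.8 and 36.9 fragments in WT. Intervals and fragment numbers cover counting error only. Between libraries the SD of Cox6b2 was 0.28 FPKM in Tfam cKO and 0.43 FPKM in WT, less than the counting error that these intervals give. The small SDs of its level and of its share are therefore not a measure of their precision. In the files Cox6b2 lies on chromosome 7 from 4703394 to 4704696, in coordinates of an unresolved build, and no other gene model overlaps it. Of 8 male germ cell markers, 7 were at 0 in all libraries, and Pgk2 was at 0.07 FPKM in Tfam cKO 2 and at 0 elsewhere. The summed keratinocyte markers were lowest in WT 2, although Krt1, Krt10 and Lor were not. In WT 2 Cox6b2 was above both Tfam cKO libraries, and the part of other cells in its level was not tested.

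Of the other second-tissue forms, Cox7a1, the heart and skeletal muscle form of subunit 7a, was at 3.09 and 6.92 FPKM in Tfam cKO and at 5.40 and 3.02 FPKM in WT. It made up 6.19% and 11.2% of the sum of Cox7a1 and Cox7a2 in Tfam cKO and 7.47% and 5.94% in WT, and the groups overlapped. The interval of Tfam cKO 1 reached down to 0, and the other 3 libraries rested on 7 to 14 effective fragments. Its ubiquitous partner Cox7a2 was at 46.9 and 55.1 FPKM in Tfam cKO and at 66.8 and 47.8 FPKM in WT. Cox6a2, the muscle form of subunit 6a, was listed at 0.414 and 0.968 FPKM in Tfam cKO and at 0.183 and 0 FPKM in WT. Both Tfam cKO values were above both WT values, and its share of the summed FPKM of Cox6a1 and Cox6a2 was 0.115% and 0.292% in Tfam cKO and 0.0593% and 0% in WT, with an exact two-sided permutation p of 0.333. Only in Tfam cKO 2 did its interval stay above 0, on 7.1 effective fragments. The 8 skeletal muscle markers summed to 1.81 and 2.58 FPKM in Tfam cKO and 2.12 and 1.14 FPKM in WT, with Mb at 0 in all libraries. Cox4i2, the lung form of subunit 4, was at 0.354 and 0.103 FPKM in Tfam cKO and at 0.312 and 0.222 FPKM in WT, with intervals that all reach 0. Cox7b2, Cox8b and Cox8c were listed at 0 in all 4 libraries.

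The ubiquitous Cox forms did not pass the test. Cox4i1 was at 395 and 394 FPKM in Tfam cKO and at 395 and 334 FPKM in WT. Cox6a1 was at 359 and 331 FPKM in Tfam cKO and at 308 and 275 FPKM in WT, with both Tfam cKO libraries higher (log2 difference of the means 0.25, SE 0.20, limma adjusted p = 0.91). Cox8a was at 283 and 355 FPKM in Tfam cKO and at 332 and 261 FPKM in WT. Apart from Cox6a1 the groups overlapped. Cox7b was at 49.5 and 50.2 FPKM in Tfam cKO and at 70.3 and 46.6 FPKM in WT. Cox7a2l, which encodes a supercomplex assembly factor related to subunit 7a, was at 172 and 182 FPKM in Tfam cKO and at 186 and 153 FPKM in WT. The 4 subunits with a single form, Cox5a, Cox5b, Cox6c and Cox7c, had log2 fold changes between −0.33 and 0.06. Cox7c was the lowest of them, at 63.2 and 88.2 FPKM in Tfam cKO and at 121 and 73.3 FPKM in WT, which gave −0.93 between the libraries numbered 1 and 0.26 between the others.

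**Figure D4:**
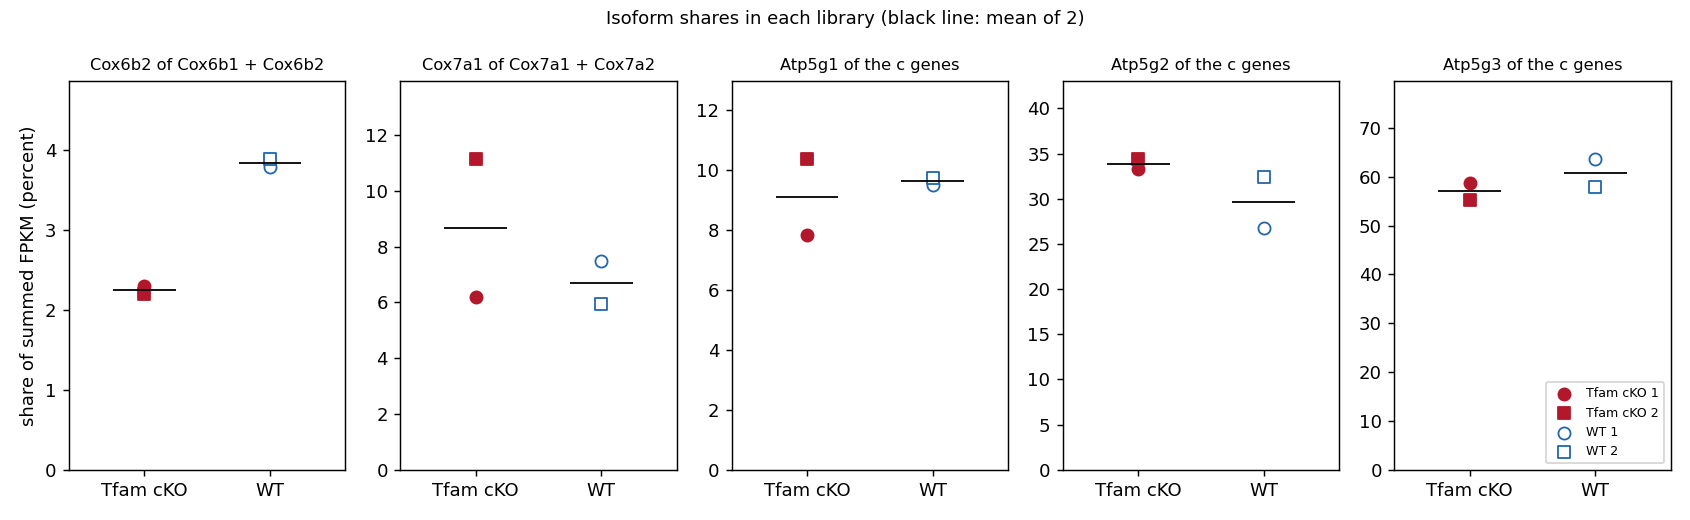
Share of an isoform in the summed FPKM of its family, in percent, for Cox6b2, Cox7a1 and the 3 genes of the ATP synthase c subunit. Tfam cKO libraries are filled red, WT libraries open blue, and lines give the mean of 2. Cox6b2 makes up 2.21% to 2.30% in Tfam cKO and 3.80% to 3.90% in WT. The shares of Cox7a1, Atp5g1 and Atp5g3 overlap between groups, and those of Atp5g2 do not.

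Complex V, the ATP synthase, has a catalytic F1 head, a stalk and a membrane rotor. Atp5a1 and Atp5b form the catalytic hexamer of the head. Atp5a1 was at 188 and 172 FPKM in Tfam cKO and at 190 and 143 FPKM in WT, and Atp5b at 419 and 342 FPKM in Tfam cKO and at 406 and 282 FPKM in WT. Atp5c1, the central shaft, was at 100 and 104 FPKM in Tfam cKO and at 117 and 83.1 FPKM in WT. The groups overlapped for all 3. Atp5d and Atp5e, the small subunits of the shaft, were separated upward. Atp5d was at 190 and 194 FPKM in Tfam cKO and at 176 and 187 FPKM in WT. Atp5e was at 289 and 405 FPKM in Tfam cKO and at 270 and 279 FPKM in WT, and the highest value was that of Tfam cKO 2 (0.32 on the log2 scale, SE 0.22, limma adjusted p = 0.90).

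The c subunit that forms the rotor ring is encoded by Atp5g1, Atp5g2 and Atp5g3, whose products differ in the import sequence and give the same mature protein. Atp5g2 was at 101 and 99.2 FPKM in Tfam cKO and at 73.8 and 76.9 FPKM in WT. The groups were apart, by 0.41 on the log2 scale (SE 0.17, limma adjusted p = 0.80) and differences of 0.45 and 0.36 within the libraries numbered 1 and 2. Atp5g3, the most abundant of the 3, was at 179 and 159 FPKM in Tfam cKO and at 176 and 137 FPKM in WT. Atp5g1, the least abundant, was at 23.8 and 29.9 FPKM in Tfam cKO and at 26.2 and 23.1 FPKM in WT. As a share of the c subunit genes, Atp5g2 took 33.3% and 34.4% in Tfam cKO and 26.8% and 32.4% in WT. The difference in the mean share was 4.27 percentage points and fell to 1.45 points without WT 1.

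Among the stalk genes, Atp5h was at 82.5 and 79.2 FPKM in Tfam cKO and at 102 and 89.5 FPKM in WT, with both Tfam cKO libraries lower (fold change on the log2 scale −0.24, SE 0.18, limma adjusted p = 0.91). Atp5f1, Atp5j and Atp5o overlapped between groups, with log2 fold changes between 0.04 and 0.19. Of the membrane subunits, Atp5k, the e subunit that takes part in dimer formation, was at 113 and 230 FPKM in Tfam cKO and at 261 and 178 FPKM in WT. Its standard error of 0.34 was the largest of any tested member, with log2 differences of −1.20 between the libraries numbered 1 and 0.37 between the others. Its Cufflinks intervals ran from 82.9 to 143 FPKM in Tfam cKO 1 and from 218 to 303 FPKM in WT 1. RefSeq names 4 pseudogenes of Atp5k, and how fragments shared with such copies were assigned is not given. Atp5s, the coupling factor, was at 1.62 and 0.922 FPKM in Tfam cKO and at 1.73 and 1.86 FPKM in WT, or −0.32 as a log2 fold change (SE 0.23, limma adjusted p = 0.90). Atpif1, which lies outside the name pattern and encodes the inhibitor of the synthase, was at 66.3 and 54.5 FPKM in Tfam cKO and at 88.7 and 58.6 FPKM in WT. Its groups overlapped (log2 fold change −0.26, limma adjusted p = 0.93).

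Genes that build or serve the same complexes did not pass the test either. For complex IV, 23 of 24 listed assembly factors were tested, and 0 passed in either direction, with a median log2 fold change of 0.10. Coa4, a twin-cysteine assembly factor of the intermembrane space, was at 5.76 and 5.65 FPKM in Tfam cKO and at 2.54 and 2.73 FPKM in WT. Both Tfam cKO libraries were higher than both WT libraries, by 0.88 on the log2 scale (SE 0.17, limma adjusted p = 0.261), and by 0.93 and 0.83 within the libraries numbered 1 and 2. Cox18, an insertase for a mitochondrially encoded subunit, was at 3.40 and 4.84 FPKM in Tfam cKO and at 2.46 and 2.52 FPKM in WT (log2 fold change 0.54, limma adjusted p = 0.72). Pet117, another assembly factor, was at 5.53 and 2.36 FPKM in Tfam cKO and at 5.84 and 8.69 FPKM in WT, and is named here after its values were seen. Both Tfam cKO libraries were lower (log2 fold change −0.80, SE 0.31, limma adjusted p = 0.75), with −0.07 between the libraries numbered 1 and −1.53 between the libraries numbered 2. Coa4, Cox18 and Pet117 were the 3 of 23 at an unadjusted p below 0.05, beside 6.21% of all symbols. The groups were separated upward for 7 and downward for 3, beside 25.4% and 9.75% of all symbols.

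The remaining lists were small. Of the assembly factors, 4 were tested for complex II, 5 for complex III and 4 for complex V, and 0 passed. Sdhaf1 was at 9.11 and 11.2 FPKM in Tfam cKO and at 14.0 and 12.0 FPKM in WT, with both Tfam cKO libraries lower, and Sdhaf4 at 8.53 and 7.47 FPKM in Tfam cKO and at 7.87 and 3.55 FPKM in WT. Both help to mature succinate dehydrogenase. Ttc19 of complex III had a log2 fold change of −0.19 and Uqcc2 one of 0.13, and Atpaf2 of complex V one of 0.14. Cycs, the mobile carrier cytochrome c, was at 16.9 and 16.3 FPKM in Tfam cKO and at 19.6 and 11.2 FPKM in WT, while its testis form Cyct was at 0 in all libraries. Ndufa4 and Usmg5, subunits of complexes IV and V whose symbols fall outside the pattern, had log2 fold changes of −0.03 and −0.02. Among complex I genes, 0 of 36 subunits were called and the median log2 fold change was 0.04, with medians of −0.10 and 0.18 within the libraries numbered 1 and 2.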

How the data were processed

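RNA from sorted Langerhans cells was made into libraries with a NEBNext Ultra kit, per the labels' protocols, which do not state poly(A) selection or strand. The authors deposited FPKM with 95% intervals from Cufflinks, 1 table per library, per the file headers. Per the submitters' processing notes, the tools were CASAVA and Cufflinks and the build mm10, with no version listed. Aligner and annotation: not given in the sources used here. Gene positions overlapped the RefSeq GRCm38 gene of the same symbol for 4.4% of 45 members and for 11.3% of 23519 symbols. Most positions thus do not match the stated mm10, and the build they follow is unresolved. How fragments that match several places were divided is not given either, which bears on subunits with processed pseudogenes.

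FPKM were summed over loci of a symbol, although no member had several. Symbols averaging 1 FPKM or more were tested on log2(FPKM + 1), which understates changes of low genes. limma 3.58.1 under R 4.3.3 was used with a mean trend, genotype as the only term and Benjamini-Hochberg adjustment at 0.05, and was tested on simulated data. Effective fragments are the squared ratio of an FPKM to its standard error, taken as the distance to an interval's end divided by 2. The depth in reads is unknown. Members, lists and markers were chosen with earlier results of these data known, and Cox6b2 was among those results. Values in each library are given for complex II, the catalytic and core genes of complex III, the Cox and c subunit families, the F1 genes, Atpif1 and, in each direction, the 3 members of lowest unadjusted p. Others with library values (Cox7c, Uqcrb, Atp5k) were picked after their values were seen. In lists, the 2 genes of lowest unadjusted p are named. Other settings tried were rescaling to equal totals, quantile normalization, other filters (none, 5 FPKM) and pseudocounts (0.1, 5), other variance models, the replicate number as a block and leaving out each library. Python 3.11.15 with matplotlib 3.10.9 drew the figures.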

Additional observations from a re-analysis of the deposited data

How the results depend on the processing

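No member was called under quantile normalization, rescaling, other filters, pseudocounts or variance models, or with a library left out. The labels give no meaning to the replicate numbers. Same-numbered libraries deviated together with r = 0.255 over 10910 genes and −0.193 over the 42 members, which does not establish pairs. With the number as a block, 1 member was called, Cox6b2 (limma adjusted p = 0.0105, highest 0.856 without a filter), as were Coa4 (higher, 0.00456, up to 0.856) and Pet117 (lower, 0.0374, up to 0.899), beside 184 symbols. The call count over all symbols was 2, and 0 with no filter (16426 symbols, 944 at an unadjusted p below 0.05), 1 with the filter at 5 FPKM, 1 with a pseudocount of 5, 5 with robust moderation, and 16 to 82 with a library left out, a fit that gives a group's single library the spread of the other group. Groups were separated upward for 2 members under quantile normalization and for 2 after rescaling, and downward for 6 and 6; over all symbols the shares were 16.3% and 14.3% upward and 17.3% and 19.8% downward. With a library left out these counts were 7 to 32 (37.3% to 55.8% of all symbols) and 3 to 26 (19.0% to 32.0%), highest without WT 1 and without WT 2. The medians of complexes II, III, IV and V then ranged from −0.062 to 0.308, from −0.14 to 0.25, from −0.20 to 0.10 and from −0.08 to 0.30, lowest without WT 2 except for complex IV, which was lowest without Tfam cKO 2. The Cox6b2 log2 fold change ranged from −0.97 after rescaling to −0.50 with a pseudocount of 5, and its share difference from −1.65 to −1.55 points with a library left out. The cause of these shifts was not tested. Among tested members, the effective fragments were fewest for Cox7a1, Cox6b2 and Atp5s; the untested Cox4i2 and Cox6a2 rest on values whose intervals mostly reach 0.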

Other observations

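Members with shorter mRNAs tended to have lower signed differences, Tfam cKO 1 minus WT 1, than members with longer ones. Across the 42 tested members, which share their libraries and are not independent replicates, the length of the longest GENCODE mRNA correlated with the log2 difference between Tfam cKO 1 and WT 1 at Spearman's rho = 0.41, and with that between Tfam cKO 2 and WT 2 at −0.23. Over 10664 tested symbols with a length these were −0.02 and −0.15. The members had a median length of 824 bases, against 3069 for all tested symbols with a length. The lowest differences between Tfam cKO 1 and WT 1 were those of Atp5k at −1.20 with a length of 371 bases, Cox7c at −0.93 with 709 bases and Cox6b2 at −0.88 with 585 bases. RefSeq names 4 pseudogenes for Atp5k, 2 each for Atp5l and Uqcrh, and 1 each for Cox7c, Cox5b and Atp5c1. Their part in these values was not tested.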
